A study of Mus musculus with 8 samples.

Results

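Csf1, Il34, Csf1r, Csf2ra, Csf2rb, Csf2rb2 and Csf3r are the mouse genes for 2 colony-stimulating factors and for the receptor chains of the whole family, and their RNA was measured in cells taken from inguinal fat pads with F4/80 magnetic beads. These 7 genes were chosen by name, through the Ensembl identifier of each, from the 56748 rows of the count table. All 7 passed the filter on low counts and are among the 16780 genes tested. The libraries fall into 2 groups of 4. Aldara libraries came from wild-type female mice that received about 62.5 mg of Aldara, a cream with 5% imiquimod (a Toll-like receptor 7 agonist), spread on the shaved lower back on 3 consecutive days. Vehicle libraries came from wild-type female mice given the same volume of a control preparation, Boots Aqueous Cream/10% Vaseline Lanette Cream, in the same way, and mice of either group were culled 24 h after the last application. The age of the mice is not given in the sources used here. Each library pooled F4/80-selected cells of 6 fat pads, about 30000 cells, from preparations in which flow cytometry found over 90% of cells positive for F4/80 and CD64. Nothing in the labels states that the pools of a group were made from different animals. The p-values therefore cover only the spread between pools, which may be technical.

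Library totals ranged from 21874780 to 34471508 counts in Vehicle and from 19537607 to 24340674 counts in Aldara, so that 1 count was worth 0.0282 to 0.0532 CPM (counts relative to library size). A count of 0 allows a level of up to 3 counts, 0.0847 to 0.160 CPM depending on the library, for counting error only. Levels below are CPM scaled with TMM factors, which correct for the composition of each library. Macrophage markers were present in every library, and their level differed between the groups. A reference of 16 macrophage genes, among them Adgre1 (which encodes F4/80), C1qa and Lyz2, summed to 1542 to 3315 CPM in Vehicle and 3739 to 9997 CPM in Aldara. Adgre1 alone rose from 82.5 ± 20.4 to 967 ± 476 CPM (SD, n = 4 each). Markers of epithelium were abundant as well: 13 genes of mammary and skin epithelium, led by Krt8, Krt19 and Krt18, summed to 11679 to 15954 CPM in Vehicle and 10948 to 13864 CPM in Aldara. The epithelial signal goes against a population of macrophages alone, so the cells are called F4/80-selected cells here. In such bulk libraries, fewer cells of a type and less RNA per cell cannot be told apart.

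Colony-stimulating factors are secreted proteins named for the blood cell colonies that they allow progenitors to form in culture. CSF1 and IL-34 are alternative ligands of CSF1R, a receptor tyrosine kinase on which most tissue macrophages depend for survival, and fat pads hold a large resident macrophage population. GM-CSF, the product of Csf2, binds a receptor made of a specific alpha chain, encoded by Csf2ra, and the common beta chain, encoded by Csf2rb, which is shared with the receptors for IL-3 and IL-5 and signals through JAK2 and STAT5. Mice carry an additional beta chain gene, Csf2rb2, whose product serves the IL-3 receptor. G-CSF, the product of Csf3, acts on CSF3R, best known from neutrophils and their precursors and also present on monocytes.

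The beta chain genes are neighbours on chromosome 15 of the mm10 build (gene models of GENCODE M21), with Csf2rb2 (ENSMUSG00000071714) from 78282507 to 78305721 and Csf2rb (ENSMUSG00000071713) from 78325752 to 78353847, on opposite strands. Their coding sequences show how alike they are, which bears on how their reads can be assigned. The lines give the first 120 coding bases of each, from the GENCODE M21 transcripts, with the 4 positions at which they differ in capitals.
Csf2rb: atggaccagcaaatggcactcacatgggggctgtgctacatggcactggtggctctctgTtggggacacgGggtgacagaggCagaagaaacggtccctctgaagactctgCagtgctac
Csf2rb2: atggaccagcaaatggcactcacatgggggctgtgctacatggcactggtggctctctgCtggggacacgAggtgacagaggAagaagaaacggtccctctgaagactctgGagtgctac
Over the whole coding part, 2688 bases in Csf2rb and 2634 in Csf2rb2, 2503 of 2628 aligned bases were identical (95.2%), and the longest identical run was 242 bases. Of all stretches of 100 bases in the Csf2rb transcripts, 4.63% also occurred in Csf2rb2 transcripts, and 6.82% of those of Csf2rb2 occurred in Csf2rb. With stretches of 50 bases the shares were 12.3% and 18.4%. The sources used here give neither the read length nor the treatment of reads with several matches, so the split of reads between this pair is uncertain to that extent.

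Of the 7 genes, 2 rose with Aldara, Csf3r and Csf2rb, and 0 fell, at an adjusted p under 0.05. Over all 16780 genes tested, 6.98% were called higher and 3.86% lower. The median log2 fold change of the 7 genes was 0.71, against 0.01 over all genes tested. Aldara libraries lay above every Vehicle library for the same 2 genes, as they did for 9.97% of all genes tested. They lay below for 0 of the 7 and for 7.79% of all genes, and for 5 of the 7 the groups overlapped. Libraries of the groups share replicate numbers, and libraries of the same number deviated together. With the replicate number as a block, 4 of the 7 genes rose, Csf1r and Csf2ra beside those named, where 9.21% of all genes were called higher and 6.14% lower. In fits without 1 library, the share of all genes called in either direction, 10.8% with all 8, was 6.51%, 6.48%, 9.44% and 7.37% without Vehicle 1 to 4 and 11.9%, 6.94%, 5.74% and 6.24% without Aldara 1 to 4, and between 1 and 4 of the 7 genes were called.

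**Figure D1:**
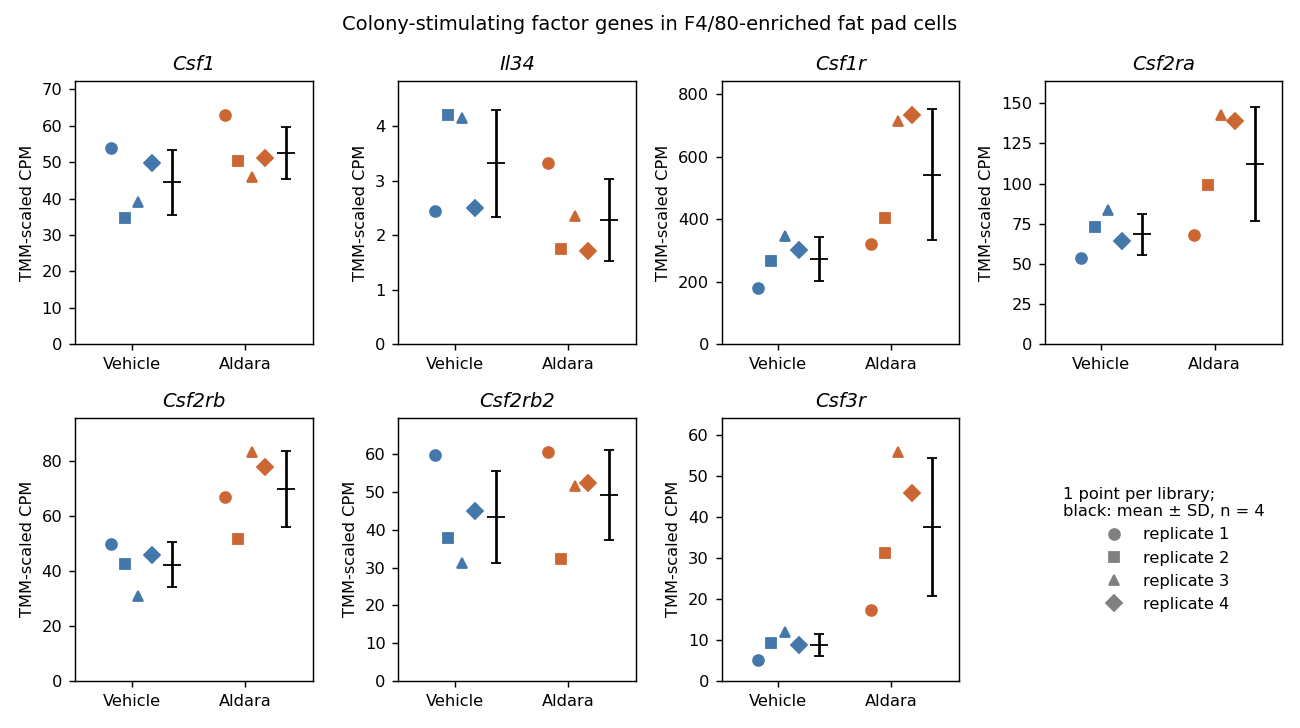
Level of each of the 7 genes in every library, in TMM-scaled CPM on linear axes that start at 0, with Vehicle libraries in blue, Aldara libraries in orange and 1 marker shape per replicate number. Black bars are the mean ± SD of 4 libraries. The Aldara points lie above all Vehicle points for Csf2rb and Csf3r and overlap them for the other 5 genes.

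Of the ligands, Csf1 (ENSMUSG00000014599, chromosome 3 from 107741048 to 107760469) was measured at 54.0, 34.8, 39.1 and 49.9 CPM in Vehicle libraries 1 to 4 and at 62.9, 50.4, 45.9 and 51.1 CPM in Aldara libraries 1 to 4. The highest library was Aldara 1 and the lowest Vehicle 2, and the ranges overlapped. Means were 44.5 ± 8.99 and 52.6 ± 7.25 CPM, a log2 fold change of 0.24 (SE 0.15) that did not pass the test (adjusted p = 0.342).

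Il34 (ENSMUSG00000031750, chromosome 8 from 110741829 to 110805924) stood at 2.44, 4.20, 4.15 and 2.51 CPM in Vehicle and at 3.33, 1.75, 2.35 and 1.70 CPM in Aldara. Aldara 1 was above 2 of the Vehicle libraries, and the other 3 Aldara libraries were below all of them. The log2 fold change was −0.54 (SE 0.29, adjusted p = 0.268), which did not pass the test. These levels rest on 32 to 147 counts per library. Some of them could belong to neighbours, since exons of Il34 share 22 and 75 of 1959 bases with the antisense RNAs Gm15894 and Gm15895 and the library kit does not mark the strand.

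Within a library, the share of Il34 among the reads of both CSF1R ligands, after division by exonic length, was 10.8%, 24.6%, 22.2% and 11.9% in Vehicle. In Aldara it was 12.5%, 8.57%, 12.1% and 8.24%. Vehicle 2 and Vehicle 3 stood apart from the other 6 libraries, which held 8.24% to 12.5%. The mean share was 17.4% ± 7.01 in Vehicle and 10.4% ± 2.26 in Aldara, a difference of −7.03 percentage points (two-sided exact permutation test, p = 0.171, and 0.25 over the 4 pairs), so it did not exceed the spread between libraries.

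Their receptor gene Csf1r (ENSMUSG00000024621) lies on chromosome 18 from 61100598 to 61132149. It was at 180, 265, 346 and 302 CPM in Vehicle and at 321, 404, 714 and 732 CPM in Aldara. Aldara 3 and Aldara 4 were above all other libraries, whereas Aldara 1 lay below Vehicle 3. The ratio of the mean CPM was 1.98, and the log2 fold change was 0.99 (SE 0.30), with an adjusted p of 0.0648. Within the pairs of one replicate number the log2 difference was 0.83, 0.61, 1.04 and 1.28, so every pair had the Aldara library higher. With the replicate block the log2 fold change was 0.94 (SE 0.11, adjusted p = 0.00114), and without Aldara 1 it was 1.17 (adjusted p = 0.0169). Exons of Csf1r share 873 of 5774 bases with Hmgxb3 on the opposite strand, and Hmgxb3 was at 55.3 ± 5.32 CPM in Vehicle and 56.5 ± 4.33 CPM in Aldara.

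Csf2ra (ENSMUSG00000059326, chromosome 19 from 61223957 to 61228429), the GM-CSF receptor alpha chain gene, showed a similar pattern in a narrower range, with 53.5, 72.9, 83.5 and 63.9 CPM in Vehicle libraries and 67.8, 99.2, 142 and 139 CPM in Aldara. Aldara 1 lay within the Vehicle range and the other 3 Aldara libraries above it. The ratio of the mean CPM was 1.64 and the log2 fold change 0.71 (SE 0.23, adjusted p = 0.0876). Every pair had the Aldara library higher, by 0.34, 0.44, 0.77 and 1.12 on the log2 scale. The replicate block gave 0.67 (SE 0.13, adjusted p = 0.00921), and leaving out Aldara 1 gave 0.89 (adjusted p = 0.00591).

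The common beta chain gene Csf2rb rose. Its levels were 49.8, 42.5, 31.0 and 45.9 CPM in Vehicle libraries and 66.9, 51.6, 83.2 and 77.7 CPM in Aldara. The lowest Aldara library, Aldara 2, was only just above the highest Vehicle library, Vehicle 1. Means were 42.3 ± 8.13 and 69.9 ± 13.9 CPM, a ratio of 1.65 and a log2 fold change of 0.72 (SE 0.17, adjusted p = 0.0259). The call was lost without Vehicle 2 (adjusted p = 0.0655), without Aldara 3 (0.0769), without Aldara 4 (0.0923) and with no filter on low counts (0.0597).

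Csf2rb2, the IL-3 receptor beta chain gene next to it, was at 59.7, 37.7, 31.1 and 44.9 CPM in Vehicle and at 60.5, 32.3, 51.6 and 52.4 CPM in Aldara. Replicate 1 held the highest level in either group, and the groups overlapped over most of their range. The log2 fold change was 0.18 (SE 0.23, adjusted p = 0.682).

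The share of Csf2rb2 among the reads of both beta chain genes compares them within each library, where total depth and scaling cancel. In Vehicle this share was 54.5%, 47.0%, 50.1% and 49.5%, and in Aldara it was 47.5%, 38.5%, 38.3% and 40.3%. The only overlap was Aldara 1 above Vehicle 2. The mean share was 50.3% ± 3.15 in Vehicle and 41.1% ± 4.35 in Aldara, a difference of −9.14 percentage points, and it was lower in Aldara in 4 of 4 pairs. The difference did not pass a two-sided exact permutation test (p = 0.0571, where 4 against 4 libraries allow 0.0286 at the least), and over the 4 pairs p was 0.125, the smallest that 4 pairs allow. Leaving out 1 library at a time kept it between −11.3 and −7.71 points, with p from 0.0571 to 0.114, where 3 against 4 libraries allow 0.0571 at the least, so none of these could pass 0.05.

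**Figure D2:**
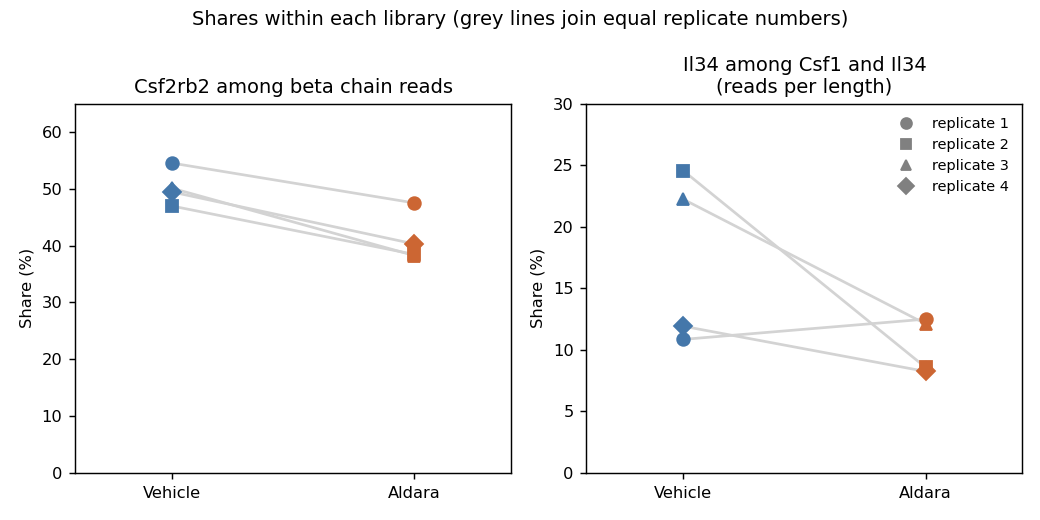
Share of Csf2rb2 among reads of Csf2rb and Csf2rb2 (left) and of Il34 among length-scaled reads of Csf1 and Il34 (right), in percent, for each library, with grey lines joining equal replicate numbers. On the left the Aldara end of all 4 lines is the lower, at 38.3% to 47.5%, and on the right that holds for 3 lines while the line of replicate 1 goes from 10.8% to 12.5%.

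Csf3r had the largest fold change of the 7 genes. It lies on chromosome 4 from 126024550 to 126044440 (ENSMUSG00000028859). Its levels were 5.16, 9.18, 11.9 and 8.74 CPM in Vehicle libraries and 17.4, 31.2, 55.9 and 45.9 CPM in Aldara, and no library of one group reached the range of the other. The mean rose from 8.73 ± 2.75 to 37.6 ± 16.9 CPM, a log2 fold change of 2.10 (SE 0.37, adjusted p = 0.00886). Within pairs the log2 difference was 1.75, 1.77, 2.24 and 2.39. The call held in each of the 8 fits that left out 1 library (adjusted p from 0.000867 to 0.038) and was lost with no filter on low counts (log2 fold change 2.09, adjusted p = 0.0551).

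Since Csf3r is best known from neutrophils, the neutrophil markers are given beside it. Of 14 such genes, Ly6g, a surface marker of mouse neutrophils, had 0 counts in every library, and 11 genes in all, Ly6g included, stayed under 1 CPM in every library. S100a8, a calcium-binding protein abundant in neutrophils, had 10 counts in the Vehicle group and 46 in the Aldara group. Its partner S100a9 had 0 and 41 counts, and the chemokine receptor gene Cxcr2 had 2 and 2. The whole list summed to 738 to 1093 CPM in Vehicle and 1249 to 1732 CPM in Aldara. Nearly all of it came from Ltf, Lcn2 and Mmp9, secreted proteins that cells other than neutrophils also make. Mmp9 rose from 31.6 to 77.6 CPM (adjusted p = 0.0205, lost in 4 of 8 fits without a library, up to 0.0641) and Lcn2 from 545 to 954 CPM (adjusted p = 0.00268). Without these 3, the remaining 11 genes summed to 0.0938 to 0.289 CPM in Vehicle and 1.12 to 2.10 CPM in Aldara. The part of neutrophils in the level of Csf3r was not tested beyond these values.

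Levels of different genes were compared per exonic length, as CPM per kilobase. Csf1r was the highest of the 7 in all 8 libraries, at 47.4 ± 12.2 CPM per kilobase in Vehicle and 94.0 ± 36.5 in Aldara. Csf2ra came next in all 8 libraries, at 23.8 ± 4.46 and 39.0 ± 12.3 CPM per kilobase, and Il34 was last in all 8, at 1.70 ± 0.503 and 1.17 ± 0.386. In Vehicle, Csf2rb2 (9.15 ± 2.59 CPM per kilobase) and Csf1 (8.42 ± 1.70) followed, with Csf1 the higher only in Vehicle 3. Csf2rb (5.81 ± 1.12) came after both in every Vehicle library, ahead of Csf3r at 2.42 ± 0.763. In Aldara, Csf3r at 10.4 ± 4.67, Csf2rb2 at 10.4 ± 2.53, Csf1 at 9.96 ± 1.37 and Csf2rb at 9.60 ± 1.91 CPM per kilobase did not differ beyond their spread. Csf3r held the place before Il34 in every Vehicle library and in Aldara 1, and the third place in Aldara 3 and Aldara 4. Exonic length here joins all annotated exons of a gene, so a gene with a long exon that these cells do not use is set too low on this scale.

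Because the macrophage markers themselves differed between the groups, each gene was also set against the 16-gene macrophage reference within its own library, as the log2 of its CPM over their geometric mean. That geometric mean was 54.8 to 105 CPM in Vehicle and 117 to 290 CPM in Aldara, a mean difference of 1.37 on the log2 scale. The reference genes moved unequally, with log2 fold changes from −0.05 for Msr1 to 3.55 for Adgre1. Csf1r, at 0.99, lay above Msr1, Fcgr1, Cd68 and Mrc1 and below the other reference genes. The ranges of the geometric mean are those of the denominator of every ratio. These ranges did not overlap, so a gene with equal CPM in all libraries would have its ratio lower in every Aldara library. The median log2 fold change over all genes tested was 0.01. How many of all genes had ratios that did not overlap was not counted. On this ratio Csf1r was lower in Aldara by 0.43, with 1.71 to 1.96 in Vehicle and 1.28 to 1.45 in Aldara, so the groups did not overlap. Csf2ra differed by −0.70 and Il34 by −1.92, with every Aldara library below every Vehicle library. The CPM of Csf1r, Csf2ra and Il34 themselves overlapped between the groups. Csf3r was the only one of the 7 whose ratio was higher, by 0.67, from −3.41 to −3.12 in Vehicle to −2.76 to −2.37 in Aldara. Csf2rb (−0.65), Csf1 (−1.12) and Csf2rb2 (−1.18) had overlapping ratios, and within pairs of equal replicate number the Aldara ratio was the lower in 4 of 4 for each of these 3. Against 10 genes found in leukocytes in general, whose geometric mean was 2.01 higher in Aldara on the log2 scale, the difference was −1.07 for Csf1r, −1.34 for Csf2ra and 0.030 for Csf3r, so the higher ratio of Csf3r depended on the reference. No test is given for these ratios, since the reference genes were listed with some of their values known. How much of each change in CPM goes with a changed share of macrophages in the pools was not tested beyond these ratios.

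**Figure D3:**
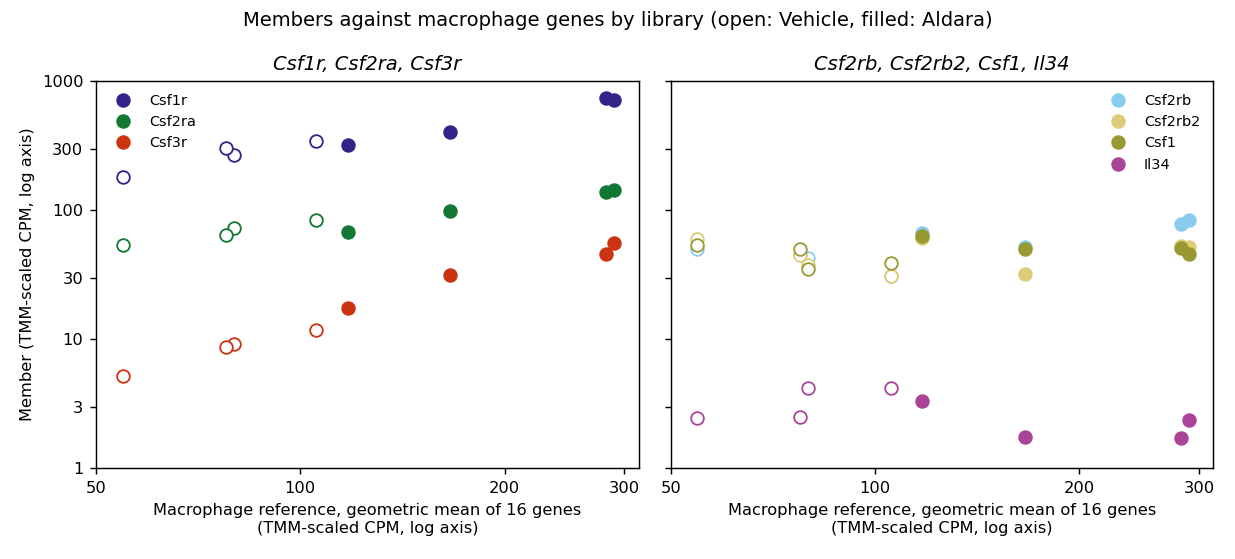
Level of each gene (vertical axis) against the geometric mean of the 16 macrophage reference genes (horizontal axis) in the 8 libraries, both in TMM-scaled CPM on log axes, with open points for Vehicle and filled points for Aldara. Csf1r, Csf2ra and Csf3r on the left climb with the reference from its lowest library at 54.8 CPM to its highest at 290 CPM, and the 4 genes on the right do not climb steadily with it.

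Across the 8 libraries, log2 CPM of Csf1r went with that of Csf2ra (Pearson r = 0.968) and of Csf3r (0.952), and Csf2ra with Csf3r (0.944). After each group's mean was taken out, these values were 0.939, 0.955 and 0.979. The beta chain genes went together less closely (0.683, and 0.831 within groups). Csf1r and its ligand Csf1 were at 0.0116 over the libraries and −0.608 within groups. The libraries share their depth and their content of macrophage RNA for all genes, and 8 points from 2 groups are few, so these are descriptions. Csf3r was also close to Adgre1 (0.978, and 0.964 within groups) and to Ptprc, the pan-leukocyte gene for CD45 (0.99, and 0.955 within groups).

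The genes most like each of the 7 were looked for among about 11000 protein-coding genes with a mean of at least 5 CPM, by Pearson r of log2 CPM over the 8 libraries. For Csf1r they were Ncf1, a subunit of the phagocyte NADPH oxidase, Plekho1 and Slc9a9 (r from 0.996 to 0.997). For Csf2ra they were F13a1, the coagulation factor XIII A chain that resident macrophages make, Adam8 and Ptafr (0.992 to 0.996). For Csf3r they were Cd300c2, Abcg3 and Pla2g15, a lysosomal phospholipase (0.995 to 0.997). Csf2rb was closest to Tnfrsf1a, a receptor for TNF (0.992), then Plbd2 and Arhgap31. For Csf2rb2 the closest was Ackr1 (0.959), an atypical chemokine receptor known from venules and red cells, followed by Plpp1 and Hsf1. The nearest genes of Csf1 were Cog4, Cldn23 and Eogt (0.911 to 0.918), and those of Il34 were Rilpl1, Smpd2 and Mad2l2 (0.942 to 0.964).

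Csf3r and Spi1 both rose, as did 10 of 10 genes found in leukocytes in general. Promoter sequence was examined for letters that PU.1, the product of Spi1, can bind. PU.1 binds a GGAA core in macrophage promoters and is a known regulator of myeloid receptor genes. Its part in the level of Csf3r was not tested. RefSeq promoters of GRCm38.p6, from 250 bases before to 50 after the start, were at hand for Csf1, Csf2ra, Csf2rb2 and Csf3r, 4 of the 7. The letters GAGGAA, searched on both strands, occurred in 28.3% of all 32851 promoters of this length. Windows of 30 bases around the matches are printed with the motif in capitals, read along the strand of the gene.
Csf3r, chr4:126024561-126024590, plus strand: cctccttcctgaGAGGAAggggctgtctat
Csf2ra, chr19:61228415-61228444, minus strand: caacctgcagatGAGGAAgaggaagcggga
Csf2ra, chr19:61228409-61228438, minus strand: gcagatgaggaaGAGGAAgcgggagacaga
Csf2rb2, chr15:78305871-78305900, minus strand: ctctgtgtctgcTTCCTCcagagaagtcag
Csf2rb2, chr15:78305675-78305704, minus strand: ggcactggcaacTTCCTCaatctgctctct
Positions count from the RefSeq start base as 0, which is 126024659 for Csf3r and 61228418 for Csf2ra. These starts lie inside the GENCODE gene models given above, whereas that of Csf2rb2, 78305721, is the same in either. The motif began at position −86 in Csf3r, where the window lies within the GENCODE gene, and at −14 and −8 in Csf2ra, where the matches follow each other directly. In Csf2rb2 it stood on the other strand, at −167 and 29, and the Csf1 window did not hold these letters. The letters TTCNNNGAA, the form that STAT factors bind, were present in 8.3% of all promoters and, of the 4, in that of Csf2rb2 alone, beginning at position −15.
Csf2rb2, chr15:78305717-78305746, minus strand: gtgtccacaaTTCTGAGAAgcaagcaaagc
A match describes the sequence and does not show that a factor binds there. GAGGAA was present in the window of Csf3r, which rose, and also in that of Csf2rb2, which did not pass the test.

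Among 14 other ligands and receptors of these families, 9 could be tested, of which 1 rose and 0 fell, against 6.98% and 3.86% of all genes tested, with a median log2 fold change of −0.14. With the replicate block Sdc1, a cell surface proteoglycan, also fell (adjusted p = 0.0148). The gene that rose was Il3ra, the IL-3 receptor alpha chain, which pairs with the beta chains. It was at 15.1, 12.7, 17.5 and 16.6 CPM in Vehicle and at 19.3, 21.1, 34.2 and 34.5 CPM in Aldara. That is a log2 fold change of 0.82 (SE 0.20, adjusted p = 0.0291), and the call was lost in the 5 fits without Vehicle 1, 2 or 4 or Aldara 3 or 4 (adjusted p up to 0.0903). The ligands of the beta chain receptors were near the detection limit, with 8 counts of Csf2 in all Vehicle libraries together and 9 in those of Aldara, 3 and 13 counts of Il5, and 0 counts of Il3. Csf3, the ligand of CSF3R, had means of 23.7 ± 2.77 (Vehicle) and 25.6 ± 4.57 CPM (Aldara), with an adjusted p of 0.683. Il5ra, the IL-5 receptor alpha chain typical of eosinophils, had 151 counts in Vehicle, of which Vehicle 1 held 119, and 7 counts in Aldara, and was too low to be tested. The eosinophil genes Ear1 and Ear6 had 0 counts and Epx 1 count in all, while Ccr3 had 8 counts in Vehicle and 49 in Aldara and Siglecf 7 and 16. The 8 eosinophil genes listed summed to 11.4 to 25.7 CPM in Vehicle and 3.67 to 6.75 CPM in Aldara, mostly from Alox15 and Ear2.

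Of 22 genes for kinases, phosphatases and adaptors that act next to CSF1R, 13 rose and 0 fell, where 6.98% of all genes tested were called higher and 3.86% lower, and the median log2 fold change was 0.64. The leukocyte genes used as references above rose beside them, 10 of 10 for leukocytes in general and 10 of 16 for macrophages. The macrophage count was 3 to 5 without Vehicle 1, Vehicle 2, Vehicle 4, Aldara 3 or Aldara 4, and 3 with no filter on low counts. It was 14 with the replicate block, with DESeq2 and without Aldara 1, and 11 without Vehicle 3. The part of leukocytes in the signalling genes was not tested. Leaving out 1 library at a time left 9 to 16 higher, and no filter on low counts left 8. Lyn, a Src family kinase of blood cells, had the smallest p, with 56.0, 61.5, 60.4 and 60.6 CPM in Vehicle libraries and 114, 137, 238 and 267 CPM in Aldara. The Vehicle libraries were nearly equal and every Aldara library was well above them (log2 fold change 1.66, SE 0.26, adjusted p = 0.00591). The leukocyte PI3-kinase genes Pik3cd and Pik3cg rose by 1.85 and 0.88 on the log2 scale (adjusted p = 0.00687 and 0.00616), and Fes, a tyrosine kinase of myeloid cells, rose from 27.8 to 54.1 CPM (adjusted p = 0.00703). Tyrobp, the adaptor DAP12, was at 31.1 ± 13.5 CPM in Vehicle and 108 ± 50.4 CPM in Aldara (log2 fold change 1.79, SE 0.40, adjusted p = 0.0221), and that call was lost in 5 of the 8 fits without a library (up to 0.0803). Src (adjusted p = 0.944) and Shc1 (0.953) did not pass the test, whereas Grb2, an adaptor that most cells express, rose by 0.53 on the log2 scale (adjusted p = 0.0295). Adam17, the protease that sheds CSF1R from the surface, was at 77.0 ± 3.29 CPM in Vehicle and 92.6 ± 13.2 CPM in Aldara (adjusted p = 0.129).

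The JAK-STAT genes downstream of the GM-CSF and G-CSF receptors, with their feedback inhibitors, numbered 15. Of these, 1 was higher and 4 were lower, against 6.98% and 3.86% of all genes tested, with a median log2 fold change of 0.01. The count lower was 2 without Vehicle 2 and 3 to 5 without any other library. The count higher was 0 without Vehicle 1, Vehicle 2, Vehicle 4, Aldara 3 or Aldara 4, with no filter and with limma voom. It was 2 without Aldara 2 and with DESeq2, and 3 with the replicate block. Stat5a, the transcription factor activated by GM-CSF and also by prolactin in mammary epithelium, was at 479, 316, 216 and 295 CPM in Vehicle and at 125, 128, 99.1 and 134 CPM in Aldara. Every Aldara library was below every Vehicle library (log2 fold change −1.43, SE 0.22, adjusted p = 0.00507), and the call held without any 1 library (up to 0.0189). Stat5b, its close relative, fell by 0.42 on the log2 scale (adjusted p = 0.0293, lost in 5 of 8 fits without a library, up to 0.0838). The cytokine feedback inhibitors Socs2 (fell by 0.70, adjusted p = 0.00574) and Socs3 (fell by 0.71, adjusted p = 0.0169, and 0.0518 without Vehicle 2) were also lower. Cish, another STAT5 target, was at 34.6 and 33.6 CPM (adjusted p = 0.889), and Jak2 at 154 ± 23.7 and 123 ± 14.4 CPM (adjusted p = 0.124). Pim2, a STAT-induced kinase, was the member that rose, from 5.41 to 11.6 CPM (adjusted p = 0.0352), and its call was lost in 6 of 8 fits without a library (up to 0.0967). Stat5a and the Socs genes are expressed in mammary epithelium too, and 1 of the 13 epithelial markers, Krt15, was lower in Aldara (adjusted p = 0.0286, lost in 4 of 8 fits without a library, up to 0.0889). Krt19 went from 2975 to 2172 CPM (log2 fold change −0.45, adjusted p = 0.0636). It was called lower with the replicate block (adjusted p = 0.0118), DESeq2 (0.00892) and upper-quartile factors (0.0357). The median log2 fold change of the 13 was −0.02. Of 9 fibroblast genes 6 were lower, with sums of 234 to 622 CPM in Vehicle and 87.3 to 175 CPM in Aldara, where 3.86% of all genes tested were called lower. That count was 2 without Aldara 2, 3 without Vehicle 2, Aldara 3 or Aldara 4 and with no filter on low counts, and 4 without Vehicle 1 or Aldara 1. It was 7 with the replicate block, with DESeq2 and without Vehicle 4. The part of these cells in the lower JAK-STAT genes was not tested.

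Transcription factors known to act on the receptor genes were higher for 4 of the 10 that could be tested, with 0 lower, against 6.98% and 3.86% of all genes tested, and a median log2 fold change of 0.33. The count was 2 without Vehicle 1, Vehicle 3, Vehicle 4, Aldara 3 or Aldara 4, and 2 with no filter on low counts. It was 5 with DESeq2 and without Aldara 1. Spi1 was at 27.2, 31.9, 34.8 and 34.7 CPM in Vehicle and at 66.9, 96.6, 209 and 182 CPM in Aldara (log2 fold change 2.11, SE 0.33, adjusted p = 0.00629). The libraries with the most Spi1, Aldara 3 and Aldara 4, also had the most Csf3r, Csf1r and Csf2ra, and r between log2 CPM of Spi1 and Csf3r was 0.978 over the 8 libraries (0.899 within groups). Within groups Csf3r went more closely with Adgre1 (0.964) and Ptprc (0.955) than with Spi1. Irf8, a regulator of the monocyte and dendritic cell lineages, rose by 1.39 on the log2 scale (adjusted p = 0.0107). Fli1 and Cebpa rose by 0.90 and 0.50 (adjusted p = 0.0317 and 0.0334). The call of Fli1 was lost in 6 of 8 fits without a library (up to 0.0893) and that of Cebpa in 5 (up to 0.0998), and Cebpa was at an adjusted p of 0.0503 with the replicate block. Runx1 was at 311 and 315 CPM. The granulocyte factor gene Cebpe had 21 counts in Vehicle and 26 in Aldara and was not tested.

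**Figure D4:**
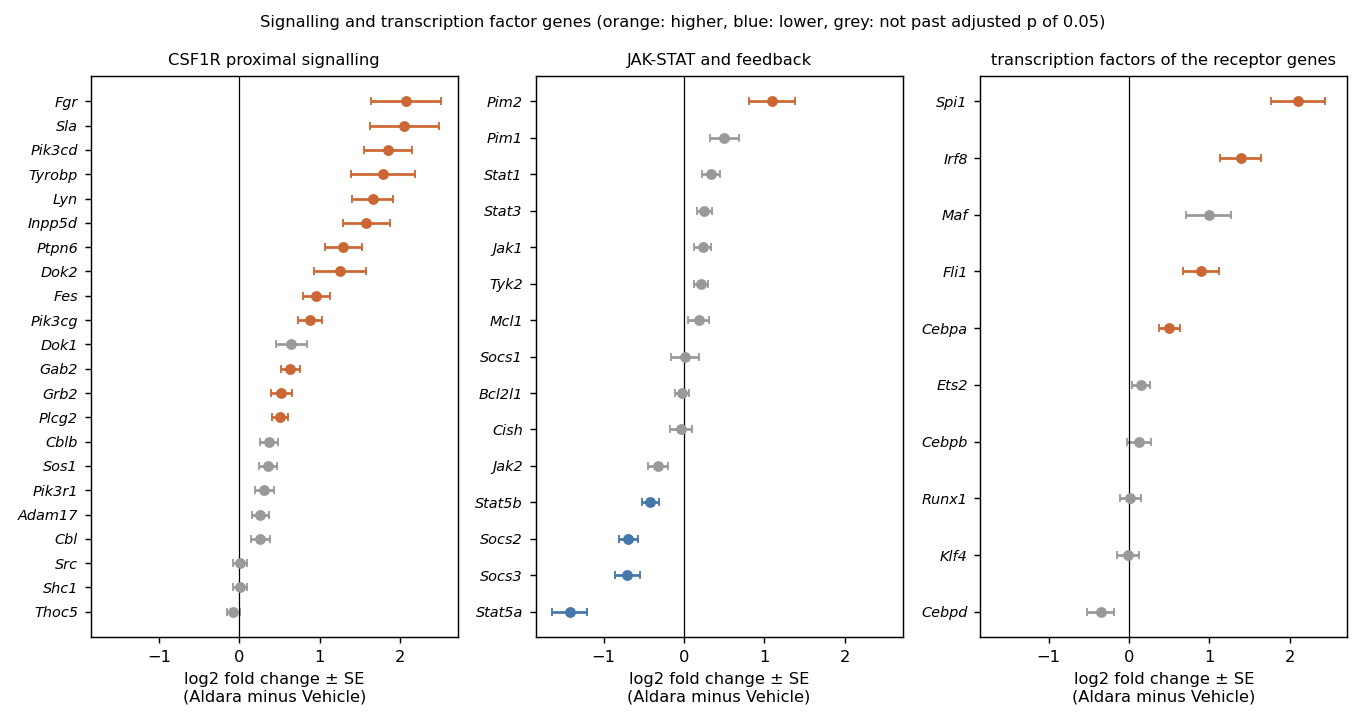
Log2 fold change (Aldara minus Vehicle) with its standard error for every tested gene of 3 lists, the proximal signalling genes of CSF1R, the JAK-STAT genes with feedback inhibitors, and transcription factors of the receptor genes. Orange marks genes higher in Aldara, blue lower and grey not past an adjusted p of 0.05, and 13 of 22, 1 of 15 and 4 of 10 are orange, with 4 blue genes, all in the JAK-STAT list.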

How the data were processed

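The deposited table holds whole-number read counts per gene for 8 libraries. Alignment and counting tools named in the submitters' processing notes are HISAT2 (2.0.5) and, with the mm10 build, featureCounts (1.5.0-p3); DESeq2 is listed too. The kit, per the labels' protocols, was SMARTer Ultra Low Input with poly-A enrichment, which does not mark the strand. Of 56748 identifiers, 52073 (91.8%) had a symbol in GENCODE M21.

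The counts were tested with edgeR 4.0.16 in R 4.3.3: filterByExpr, TMM factors, a robust quasi-likelihood F test of Aldara against Vehicle, and Benjamini-Hochberg adjustment over 16780 genes with a threshold of 0.05. Every adjusted p comes from this test unless another is named. No counting intervals are given, since amplified reads are not independent molecules. The procedure was tested on simulated data, where it recovered 59.6% of genes with a log2 change of 1 and 93.8% of those with 2. Of its calls there, 5.06% were genes left unchanged. Few of the 16780 genes were changed in the simulation, and it held no effect of the replicate number. These shares therefore need not hold for the real libraries. Counts of the 2 most similar libraries of a group gave a chi-square over its degrees of freedom of 20.4, far beyond sampling noise.

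The replicate numbers come from the labels. Libraries of the same number deviated from their group means together (r = 0.261, 0.114, 0.200 and 0.245 for numbers 1 to 4), which was taken as pairing. Between unequal numbers r ran from −0.249 to 0.100, so that of number 2 barely stood out. The main test did not use the pairing. DESeq2 1.42.0, limma 3.58.1 (voom), upper-quartile factors, no filter, the block and leaving out each library were alternatives.

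The 7 genes and the gene lists were chosen with earlier results of these data known. Named from each pathway list were up to 4 called genes in each direction by smallest p, a few fixed genes such as Csf3, Stat5a and Spi1, and the 3 genes most like each of the 7. Src, Shc1, Grb2, Sdc1, Ccr3, Runx1, Cebpe, Il5, Il3, Ltf, Lcn2, Mmp9, Alox15, Ear1, Ear2, Ear6, Krt15, Krt18, Krt19, C1qa, Lyz2, Msr1, Mrc1 and Hmgxb3 were named after their values were seen. Some genes taken by this rule are not reported here and were left out of the list counts.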

Additional observations from a re-analysis of the deposited data

Results flagged for a closer look

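In 5 of the 84 groups of 4 libraries examined, 1 library stood farther from the rest than Dixon's 95% critical value allows. The groups covered the 7 genes, the shares and a fixed list of other genes that leaves out many of those named here. Chance flags about 1 in 20 such groups. Il5ra was at 5.58 CPM in Vehicle 1, against 0.868 CPM in the next Vehicle library. Col1a1, a fibroblast collagen, was at 143 CPM in Vehicle 1, the next being 56.9 CPM. Jak2 was at 145 CPM in Aldara 4, where the other Aldara libraries held 115 to 117 CPM. Cxcr2 in Vehicle 4 (0.0642 CPM) and Epx in Aldara 1 (0.0427 CPM) were flagged on 2 and 1 counts. None of the 7 colony-stimulating factor and receptor genes was flagged.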

How the results depend on the processing

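Over all alternatives to the results reported, 183 values kept their direction and side of the threshold or stayed near the main value. A further 9 newly passed the threshold or were counts of called genes that grew well beyond the main count. Another 13 no longer passed it or were such counts that shrank, 3 moved beyond the spread and 0 reversed. Among the 183 are the ratios with the replicate block, whose mean difference equals the main one by construction. Also among them are the tests of the shares without 1 library and over pairs. Those cannot give p below 0.0571 and 0.125, so they could only stay or reverse. Csf1r passed with DESeq2 (log2 fold change 0.98, adjusted p = 0.00489) and with the replicate block (0.94, 0.00114), and Csf2ra likewise (0.70, 0.0222, and 0.67, 0.00921). The replicate block changed no other call among the 7 genes. With no filter on low counts, Csf2rb (0.71, adjusted p = 0.0597) and Csf3r (2.09, 0.0551) missed the threshold, with 31704 genes in the adjustment. Upper-quartile factors and limma voom called the same 2 of the 7 genes as the main test. Leaving out 1 library gave log2 fold changes of 0.80 to 1.17 for Csf1r, 0.57 to 0.89 for Csf2ra and 0.60 to 0.84 for Csf2rb. Genes called lower, 647 in the main test, were 1198 with DESeq2, 990 with upper-quartile factors (979 higher, against 1171) and 1030 with the replicate block. Without 1 library, 629 to 1405 genes were higher (703, 699, 658 and 629 without Vehicle 1, Vehicle 2, Aldara 3 and Aldara 4) and 323 to 664 lower (415, 412, 353 and 323 without Vehicle 1, Vehicle 2, Aldara 2 and Aldara 3). Against the pan-leukocyte reference the ratio differed by −1.07 for Csf1r, −1.34 for Csf2ra and 0.030 for Csf3r. The causes were not tested. Depth limits Il34 most, which rests on 32 to 147 counts.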
